A study of Homo sapiens with 9 samples.

Results

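The regions described here are H3K27ac peaks that were called wider after ACBI-1 than after its vehicle in DND-41 cells. A pair was formed where a DMSO peak overlapped exactly 1 ACBI peak and that ACBI peak overlapped no other DMSO peak. Among 28543 such pairs, 1606 had an ACBI peak of 1000 bp or more that was at least 1.5 times as wide as its DMSO partner, which is 5.63% of the pairs. They are called widened pairs below. They held 1.77% of the 90495 DMSO peaks and 3.03% of the 52967 ACBI peaks.

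DND-41 is an established human cell line of T-cell acute lymphoblastic leukemia. Its chromatin was profiled by CUT&RUN, in which an antibody brings micrococcal nuclease to its target and the released DNA is sequenced. H3K27ac was profiled after 100 nM ACBI-1 and after DMSO, while the BRG1, RUNX1 and H3K4me3 libraries carry no treatment label. Each target and condition had 1 library with a peak list, so nothing below could be checked against a repeat of the experiment, and no test was run. The 4 samples labelled as IgG or input controls were not analysed here.

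H3K27ac, acetylation of lysine 27 of histone H3, marks active promoters and enhancers, and H3K4me3 is found mainly at active promoters. BRG1, the product of SMARCA4, is an ATPase of the SWI/SNF complexes, which move nucleosomes and keep many enhancers accessible. ACBI-1 directs BRG1, the related ATPase BRM and the subunit PBRM1 to degradation. RUNX1 is a DNA-binding transcription factor of blood cells that acts in T-cell development and in T-cell leukemia.

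Widened pairs were the exception in these 2 libraries. By the same rule with the libraries exchanged, 10766 pairs (37.7%) had a DMSO peak of 1000 bp or more that was at least 1.5 times the ACBI width. Counting any gain in width, however small, 7249 pairs (25.4%) were wider in ACBI. Over all pairs the ACBI peak was a median of 0.695 times as wide as the DMSO peak. The widened pairs were selected on these widths, so the counts are a description and are not tested.

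The DMSO peaks of widened pairs were small. Their median width was 657 bp, with quartiles of 418 and 941 bp and a range from 158 to 3543 bp, and 1254 of the 1606 (78.1%) were narrower than 1000 bp. The DMSO peaks of all other pairs had a median of 1518 bp. In ACBI the widened peaks had a median of 1532 bp, with quartiles of 1229 and 2027 bp and a maximum of 5868 bp, against a median of 827 bp in the other pairs. In ACBI the median of the widened peaks was about that of the other pairs in DMSO. The rule asks for a wide ACBI peak and a narrower DMSO peak, so these widths follow in part from the selection. Together the widened pairs covered 1.19 Mb in DMSO and 2.80 Mb in ACBI.

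**Figure D1:**
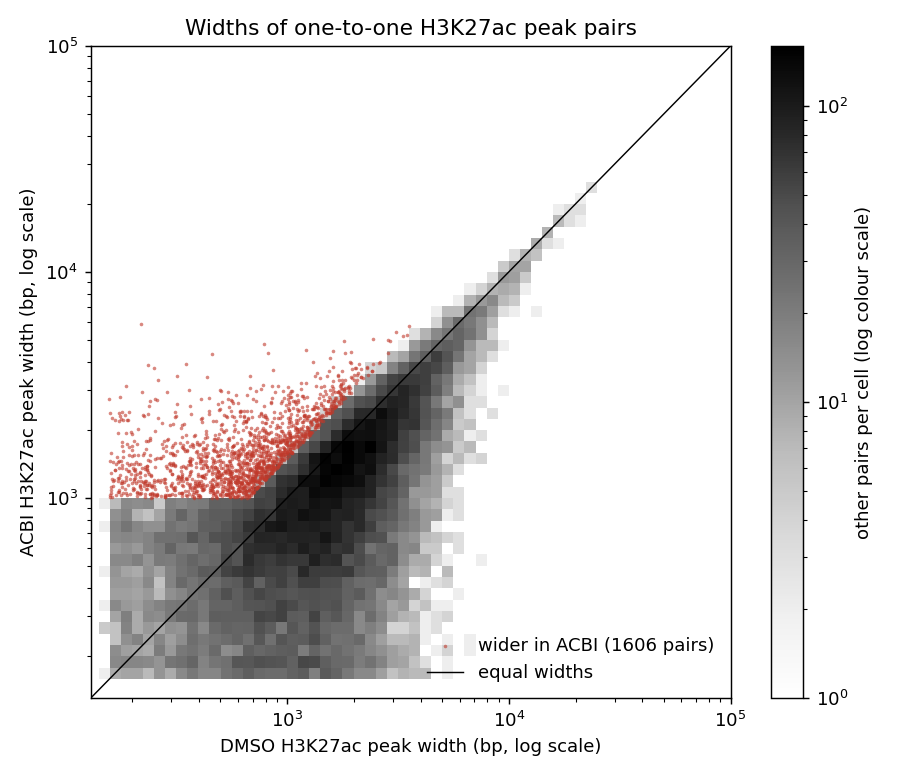
Width of the DMSO peak (x axis, bp, log scale) against the width of the ACBI peak (y axis, bp, log scale) for the 28543 pairs. Red points are the 1606 widened pairs, the grey cells count the other pairs and the line marks equal widths. Most of the other pairs lie below the line, and the red points lie over DMSO widths of 158 to 3543 bp.

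The width ratio spanned a wide range. It was 1.5 to under 2 in 656 widened pairs, 2 to under 3 in 445, 3 to under 5 in 287, 5 to under 10 in 186 and 10 or more in 32. The median was 2.26. At the ratio threshold, the 3 pairs just inside had ratios of 1.501, 1.502 and 1.502, and the 3 just outside had 1.499, 1.498 and 1.496. At the width threshold, the 3 just inside had ACBI peaks of 1000, 1000 and 1001 bp and the 3 just outside 999, 998 and 998 bp. The rule therefore divides a continuum of pairs.

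The added length, meaning the bases of the ACBI peak outside the DMSO peak, lay mostly on 1 flank. Its median was 958 bp (quartiles 742 and 1252 bp). The longer flank had a median of 810 bp and the shorter one 80 bp, and in 1033 pairs (64.3%) at least 80% of the added length lay on 1 side. In 604 pairs (37.6%) the ACBI peak reached beyond the DMSO peak on 1 side only, and in 216 (13.4%) the split between the sides was no more uneven than 60 to 40. The DMSO peak lay wholly inside the ACBI peak in 1014 pairs (63.1%). The rest had also lost some bases at the opposite edge.

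The longer flank was found on either side about equally often. It lay at lower coordinates in 809 pairs and at higher coordinates in 796. Among the 1475 pairs without H3K4me3 in the DMSO peak and with unequal flanks, it faced the nearest H3K4me3 peak in 749 (50.8%, exact Clopper-Pearson 95% interval 48.2 to 53.4). The corresponding shares were 50.5% (47.9 to 53.1) for the nearest RUNX1 peak and 50.8% (48.3 to 53.3) for the nearest BRG1 peak. Within 5 kb of an H3K4me3 peak the flank faced it in 71 of 142 pairs. These intervals, like those below, cover counting error over peaks and not the spread between cultures.

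Most widened pairs held none of RUNX1, BRG1 and H3K4me3. That was so for 1438 of the 1606 DMSO peaks (89.5%, 87.9 to 91.0), with an overlap of at least 1 bp counted as holding a peak. Wide peaks hold more peaks of any kind, so the other pairs were weighted to the same DMSO widths in 10 bins, which left 24060 other pairs with DMSO peaks of 158 to 3543 bp. Of these, 79.7% held none of the 3. This is the comparison used in the following paragraphs unless another is named.

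RUNX1 was found in 106 widened pairs (6.60%, 5.44 to 7.93), against 13.1% of the other pairs at the same DMSO widths. The difference was -6.50 percentage points. The share was lower in the widened pairs in all 10 width bins. In the narrowest bin, with DMSO peaks of 158 to 239 bp, it was 0.629% against 2.20%, and in the widest, from 1353 to 3543 bp, it was 23.9% against 38.7%. Widths can still differ within the widest bin, where 163 of 12502 pairs were widened, for this and the next 2 lists. With 50 bins the RUNX1 difference was -6.07 points. Of the 106 DMSO peaks with RUNX1, 103 held a single RUNX1 peak.

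BRG1, the direct target of the degrader, was found in 47 widened pairs (2.93%, 2.16 to 3.87), against 6.12% of the other pairs at the same widths. The difference was -3.19 points. The share was lower in the widened pairs in each of the 10 width bins, although the narrow bins hold few BRG1 peaks in either class. In the widest bin it was 9.20% against 20.6%. All but 1 of the 47 DMSO peaks held a single BRG1 peak.

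H3K4me3 was found in 130 widened pairs (8.09%, 6.81 to 9.54), against 15.3% of the other pairs at the same widths. The difference was -7.20 points, again with the lower share in the widened pairs in 10 of 10 bins. In the bin of 566 to 656 bp the shares were 3.77% and 12.5%, and in the widest bin 28.8% and 37.1%. Most widened pairs were therefore away from promoter marking, as were most other pairs of their size.

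**Figure D2:**
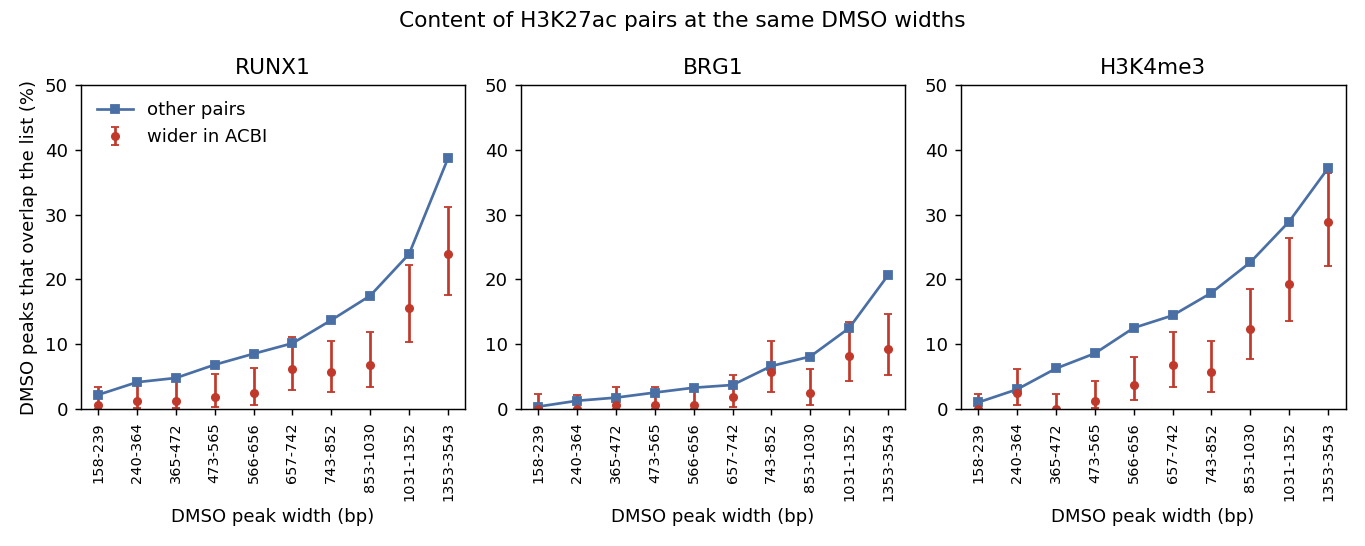
Share of DMSO peaks that overlap a RUNX1, BRG1 or H3K4me3 peak (y axis, percent) in 10 bins of DMSO width (x axis, bp). Red points are widened pairs with exact 95% intervals and blue squares the other pairs. The red points lie below the blue squares in every bin of the 3 panels, with differences over all bins of -6.50 points for RUNX1, -3.19 for BRG1 and -7.20 for H3K4me3.

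The 3 lists overlapped in part in the same widened pairs. Of the 168 that held any of them, 26 held all 3, while 49 held H3K4me3 alone, 27 RUNX1 alone and 3 BRG1 alone. Of the 130 with H3K4me3, 71 held RUNX1 (54.6%, 45.7 to 63.4), and other H3K4me3 pairs of the same widths held it in 58.7% of cases. BRG1 was found in 36 of the 130 (27.7%, 20.2 to 36.2), against 33.1%. At these promoter-marked peaks the differences were -4.05 points (RUNX1) and -5.39 points (BRG1). The shares of the other pairs lay inside the intervals of the widened pairs, which are wide with 130 pairs. Away from H3K4me3, 35 of 1476 widened pairs held RUNX1 (2.37%, 1.66 to 3.28), against 5.63%, and 11 held BRG1 (0.745%, 0.373 to 1.33), against 1.77%. There the differences were -3.26 and -1.02 points, and the shares of the other pairs lay above the intervals. Lower shares were thus resolved only away from H3K4me3. At the promoter-marked peaks the 130 pairs are too few to decide.

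Seen from the content, a peak with a factor or the promoter mark was seldom in a widened pair. Of the 8140 pairs whose DMSO peak held RUNX1, 1.30% (1.07 to 1.57) were widened. It was 1.11% (0.819 to 1.48) of the 4220 pairs with BRG1, 1.70% (1.43 to 2.02) of the 7628 pairs with H3K4me3 and 8.14% (7.74 to 8.55) of the 17676 pairs with none of the 3. These shares are not adjusted for width. Pairs with RUNX1 and BRG1 together were widened in 34 of 3551 cases (0.957%, 0.664 to 1.34).

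The content changed along the width ratio. Among widened pairs with a ratio of 1.5 to under 2, 12.7% held RUNX1, against 19.6% of other pairs at the widths of that class. At ratios of 2 to under 3 the values were 4.04% and 12.1%, and at 3 or more they were 0.990% (5 of 505) and 6.61%. H3K4me3 was found in 16.8%, 3.60% and 0.792% of the 3 classes, with 23.1%, 14.8% and 6.40% in other pairs of those widths. BRG1 was found in 39, 7 and 1 of the 656, 445 and 505 pairs. These are 5.95%, 1.57% and 0.198%, against 9.71%, 5.49% and 2.73% in other pairs of those widths. Widened pairs with H3K4me3 had a median ratio of 1.68, those with RUNX1 1.69 and those with none of the 3 lists 2.39. Their DMSO peaks had medians of 1103, 1112 and 619 bp, and a narrow DMSO peak needs a larger ratio to reach the required 1000 bp. The added length was similar, with medians of 878, 932 and 970 bp.

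Low content was not limited to the pairs that were wider in ACBI. Among the 6020 pairs with DMSO peaks of 419 to 941 bp, the middle 50% of the widened widths, RUNX1 was found in 13.5% (11.8 to 15.4) of pairs with a ratio of 0.667 to 1. It was found in 8.62% (7.23 to 10.2) of pairs with a ratio under 0.5 and in 2.69% (1.30 to 4.89) of pairs with a ratio of 2 to 3. H3K4me3 followed the same order, at 19.3% (17.3 to 21.4), 10.6% (9.08 to 12.3) and 1.88% (0.760 to 3.84). In pairs with a ratio of 0.5 to 0.667 the shares were 13.3% (11.0 to 16.0) for RUNX1 and 16.2% (13.7 to 19.1) for H3K4me3. Both lists were thus most frequent where the ACBI peak was somewhat narrower than the DMSO peak, and less so at either end. This width range was chosen after the values were seen.

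**Figure D3:**
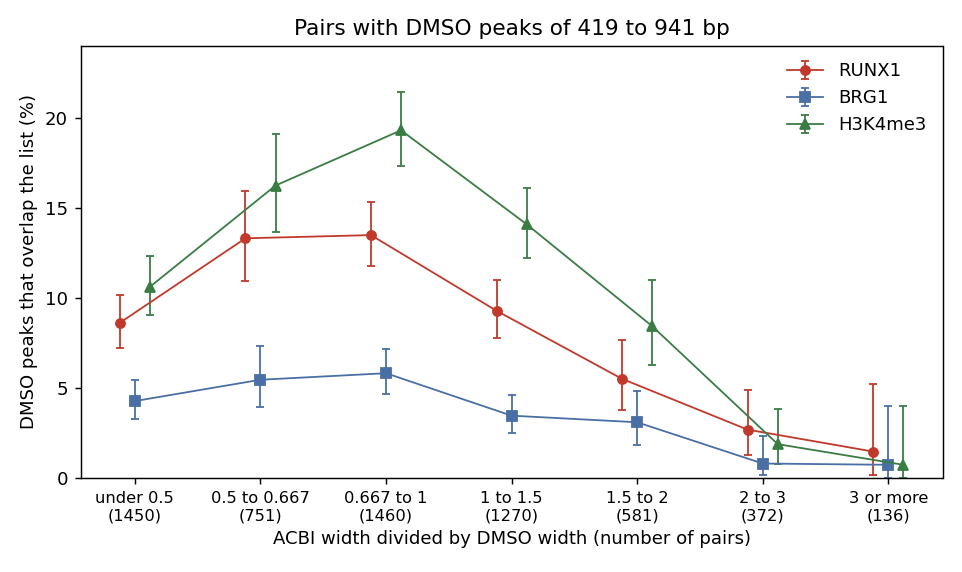
Share of DMSO peaks that overlap RUNX1 (red circles), BRG1 (blue squares) or H3K4me3 (green triangles), in percent with exact 95% intervals, by the ratio of ACBI to DMSO width (x axis, number of pairs in brackets). All pairs have DMSO peaks of 419 to 941 bp. The shares are highest at ratios of 0.667 to 1, where H3K4me3 reached 19.3%, and lowest at ratios of 2 and above.

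For wide DMSO peaks the comparison partner decided the direction for H3K4me3. Of the 352 widened pairs whose DMSO peak was 1000 bp or wider, 84 held H3K4me3 (23.9%, 19.5 to 28.7). Pairs that were wider in DMSO by the exchanged rule held it in 21.7% of cases at the same DMSO widths. Pairs whose widths differed by less than 1.5 times held it in 45.6%. For RUNX1 the 3 shares were 19.3% (15.3 to 23.8), 23.6% and 35.1%, and for BRG1 8.24% (5.59 to 11.6), 11.8% and 18.8%. For RUNX1 and H3K4me3, the pairs wider in DMSO thus lay inside the interval of the widened pairs, and for BRG1 just above it. The pairs of little changed width lay above it for each list.

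The length that the ACBI peaks added held few peaks of any list. The shared part of widened pairs (1.07 Mb) held 102 RUNX1 midpoints, or 95.3 per Mb, and the added part (1.73 Mb) held 13, or 7.53 per Mb. For BRG1 there were 40.2 per Mb in the shared part and 1.16 per Mb (2 midpoints) in the added part. For H3K4me3 there were 114.0 and 9.85 per Mb. In the 24060 other pairs, here without weighting for width, ACBI peaks also reached past DMSO peaks over 3.37 Mb in all. That length held 24.4 RUNX1, 8.62 BRG1 and 25.9 H3K4me3 midpoints per Mb, beside 294.8, 140.1 and 304.4 per Mb in their shared part. For RUNX1 the shared part was 12.7 times as dense as the added part in the widened pairs and 12.1 times in the others, and for H3K4me3 11.6 and 11.8 times. For BRG1 it was 34.7 and 16.3 times, with only 2 midpoints in the added part of the widened pairs. A sparse added part was thus common to both classes. In pairs wider in DMSO, the part of the DMSO peak outside the ACBI peak was less sparse. There the shared part was 4.28 (RUNX1), 3.73 (BRG1) and 4.88 (H3K4me3) times as dense. In 9 widened pairs a RUNX1 peak lay in the added length and not in the DMSO peak. The same held for an H3K4me3 peak in 1 pair and for a BRG1 peak in none. Counted over the union of both peaks, the widened pairs with RUNX1 thus went from 106 to 115 of 1606. Among all 26937 other pairs, not weighted for width, they went from 8034 to 8055 (H3K4me3 7498 to 7503, BRG1 4173 to 4185). The other pairs had a median added length of 0 bp, against 958.5 bp in the widened pairs. The 3 lists carry no treatment label, so these counts show no gain of binding or of the mark.

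At promoter-marked sites, the ACBI peak covered more of the H3K4me3 peak than the DMSO peak did. The widened pairs overlapped 143 H3K4me3 peaks with a median width of 1402 bp. DMSO H3K27ac covered 65.6% of their length and ACBI H3K27ac 88.7%, and 20 and 73 of them were covered in full. At other pairs of the same DMSO widths, 71.9% of the length was covered in DMSO and 57.6% in ACBI. The rule fixes the direction of this difference, since it selects wider ACBI peaks. RUNX1 peaks at widened pairs were narrow (median 362 bp), with 83.4% of their length covered in DMSO and 94.6% in ACBI. For BRG1 the values were 91.8% and 94.99%.

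**Figure D4:**
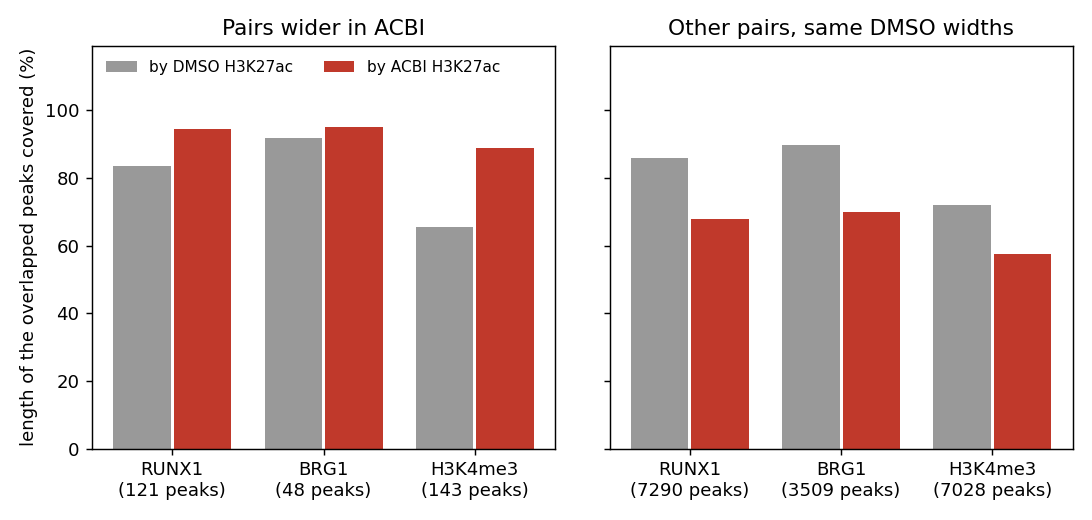
Share of the length of the overlapped RUNX1, BRG1 and H3K4me3 peaks (percent, y axis) that DMSO H3K27ac (grey) and ACBI H3K27ac (red) covered, in widened pairs (left) and in other pairs weighted to the same DMSO widths (right). The number of peaks is given in brackets. The step from DMSO to ACBI is largest for H3K4me3 at widened pairs, from 65.6% to 88.7%, and downward for each list in the other pairs.

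Distances to the nearest peak differed mainly through the pairs that held a peak in the DMSO peak itself. Of the widened pairs, 14.7% had a RUNX1 peak in the DMSO peak or within 5 kb of it, against 22.1% of the other pairs at the same widths. For H3K4me3 the shares were 16.9% and 23.5%, and for BRG1 6.48% and 10.4%. The shares with a peak in the DMSO peak itself, given above, are part of these. They alone differed by -6.50 points for RUNX1, -7.20 for H3K4me3 and -3.19 for BRG1. The shares within 5 kb are thus mostly the same result again. The median distance to H3K4me3 was 24.2 kb for the widened and 23.7 kb for the other pairs. For RUNX1 the medians were 24.3 and 20.6 kb, and for BRG1 49.4 and 51.7 kb. The widened pairs thus lay in neighbourhoods about as far from promoter marking as other pairs of their size.

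The surroundings of widened pairs had more H3K27ac in both conditions and a higher ratio of ACBI to DMSO. Within 50 kb on each side, leaving out the pair itself, other peaks covered a mean of 22.4 kb in DMSO and 16.0 kb in ACBI, a ratio of 0.713. Around the other pairs at the same widths the means were 17.7 and 10.6 kb, a ratio of 0.598. The surroundings held more H3K27ac in ACBI than in DMSO at 15.4% of the widened pairs and at 7.09% of the others. Without chromosome 20, which is described next, the ratios were 0.700 and 0.592. These neighbouring peaks come from the same 2 libraries, so they are no independent measurement.

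The widened pairs were spread over the autosomes and X, with chromosome 20 apart from the rest. On chromosome 20, 113 of 1000 pairs were widened (11.3%, 9.40 to 13.4). The next were chromosome 12 with 7.09% (5.83 to 8.54) and chromosome 8 with 6.61% (5.16 to 8.32), and the lowest of the autosomes and X were chromosome 15 with 3.85% (2.65 to 5.39) and X with 2.46% (1.35 to 4.09). If each pair were widened at the rate of its width bin, chromosome 20 would have 6.53%. Chromosome 20 also had the highest median width ratio over all of its pairs, 0.789, and the smallest share of pairs wider in DMSO, 28.3%. Its H3K27ac cover was 0.702 times the DMSO value in ACBI, against 0.556 over all sequences. Without chromosome 20, 1493 of 27543 pairs (5.42%) were widened.

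**Figure D5:**
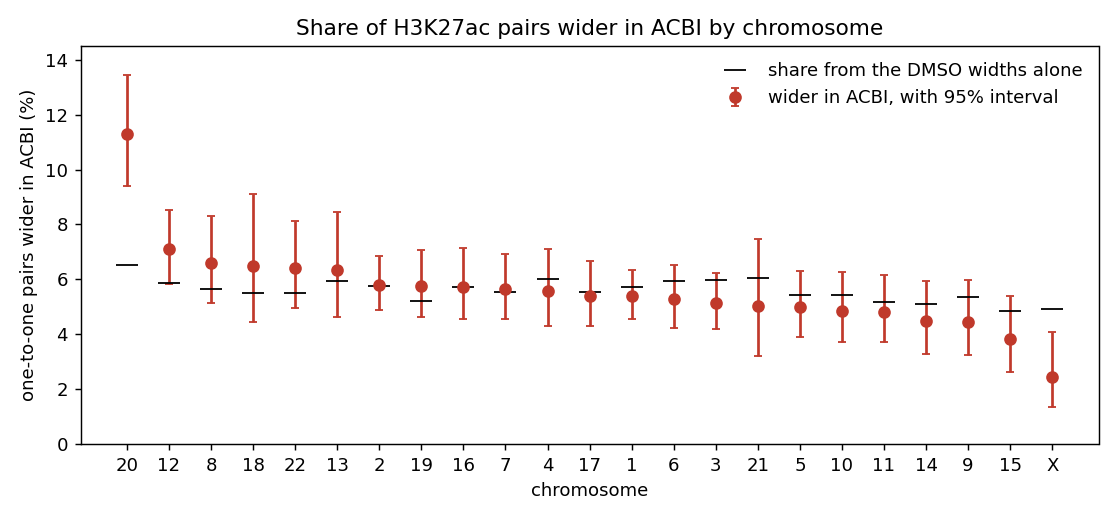
Share of pairs that were widened (red points, percent, with exact 95% intervals) for the autosomes and X, in falling order. Black bars give the share that the DMSO widths of each chromosome's pairs would give at the rates of the 10 width bins. Chromosome 20 stands at 11.3% with a bar at 6.53%.

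Of the 1606 widened pairs, 1331 had no widened pair as a direct neighbour in the order of pairs, 222 stood in runs of 2 and 36 in runs of 3. Widened pairs were 5.63% of all pairs, so most would lack a widened neighbour at random placement too. Whether they were clustered was not tested. The median gap between successive widened pairs was 369.8 kb. Of 2317 windows of 1 Mb that held any pair, 1520 held no widened pair, 423 held 1 and 191 held 3 or more.

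The densest window was on chromosome 20, from 13 to 14 Mb, where 17 of 46 pairs were widened (37.0%, 23.2 to 52.5). They lay between 13241545 and 13773610 in hg19. The DMSO peaks of these 17 had a median of 631 bp and the ACBI peaks one of 2038 bp. None of the 17 held RUNX1, BRG1 or H3K4me3, as was so for 89.5% of all widened pairs. The whole window had 122 DMSO and 107 ACBI peaks that covered 213.9 and 280.5 kb, so here the ACBI list covered 1.31 times the DMSO length. Without this window, 96 of the other 954 pairs on chromosome 20 were widened (10.1%, 8.23 to 12.1).

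Other windows held fewer. Chromosome 17 from 80 to 81 Mb had 12 widened pairs of 71, with a median ratio of 0.891 over all of its pairs. Chromosome 20 from 33 to 34 Mb had 10 of 49 (median ratio 0.881), and chromosome 2 from 40 to 41 Mb had 9 of 34 (0.932). On chromosome 6 from 151 to 152 Mb, 9 of 28 pairs were widened and the median ratio of all pairs was 1.57. On chromosome 12 from 32 to 33 Mb, 8 of 27 were widened and the median ratio was 1.44. On chromosome 9 from 97 to 98 Mb, 7 of 18 were widened with a median ratio of 1.35. Of the 35 windows with 6 or more widened pairs, the median ratio of all pairs was above 1 in 7 and below 1 in 28. The windows were picked for their counts, and their shares are a description.

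The longest run of neighbouring widened pairs had 5 members, on chromosome 5 from 154153286 to 154168745. In this span of 15460 bp, the 5 DMSO peaks covered 5601 bp and the 5 ACBI peaks 12145 bp, with ratios from 1.59 to 3.77. No other H3K27ac peak lay in the span in either list. Runs of 4 were found on chromosome 10 (3132739 to 3151312), chromosome 20 (36486466 to 36500229) and chromosome 8 (61755349 to 61769543). Their DMSO peaks covered 4277, 1904 and 1948 bp and their ACBI peaks 11836, 6483 and 8194 bp. None of these runs held RUNX1, BRG1 or H3K4me3 in a DMSO peak, and 89.5% of all widened pairs held none.

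The largest widening in ratio, in added length and in final width was the same site, on chromosome 1. A DMSO peak of 220 bp (229773556 to 229773775) lay inside an ACBI peak of 5868 bp (229769735 to 229775602), a ratio of 26.7. The ACBI peak added 3821 bp on the lower side and 1827 bp on the upper side. None of the 3 other lists had a peak inside, and the nearest H3K4me3 peak was 10.3 kb away. Coordinates are in hg19 and count from 1, and no gene is named because hg19 gene models were not used here.

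The 10 largest ratios, from 13.4 to 26.7, all started from DMSO peaks of 158 to 251 bp. None of these 10 held RUNX1, BRG1 or H3K4me3, and 2 were extended on 1 side only. Peaks this narrow seldom hold any: other pairs in the bin of 158 to 239 bp held the 3 lists in 2.20%, 0.389% and 1.04% of cases. The second was on chromosome 13, where a DMSO peak of 158 bp (114259174 to 114259331) met an ACBI peak of 2755 bp. The third was on chromosome 19, with 187 bp (39858223 to 39858409) against 3117 bp. The fourth and the sixth lay close to each other on chromosome 2.

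In the sixth, a DMSO peak of 251 bp (136518596 to 136518846) met an ACBI peak of 3761 bp. In the fourth, 235 bp (136610849 to 136611083) met 3884 bp. Both lay off the 3 lists, with H3K4me3 16.9 and 20.7 kb away. The remaining DMSO peaks of the 10 started at 30147404 on chromosome 13, 55815094 on chromosome 7, 755822 on chromosome 11, 35465125 on chromosome 21 and 13547353 on chromosome 18. The one on chromosome 7 lay 139.5 kb from H3K4me3 and 174.6 kb from RUNX1, so these sites ranged from 6.63 to 139.5 kb in their distance to promoter marking.

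By added length the sites after the one on chromosome 1 were less small in DMSO. On chromosome 9, a DMSO peak of 785 bp (97846982 to 97847766) grew by 4031 bp to 4816 bp. On chromosome 12, a peak of 460 bp (32155791 to 32156250) grew by 3892 bp to 4352 bp, of which 3580 bp lay on the lower side. These 2 sites lie in the windows on chromosomes 9 and 12 named above. The others, outside those already given, started in DMSO at 26290252 on chromosome 1, 40330388 on chromosome 19, 111303724 on chromosome 13, 80509752 on chromosome 17 and 63151687 on chromosome 7. None of the 10 held a peak of the 3 lists, as was so for 89.5% of all widened pairs. The added length ran from 3160 to 5648 bp.

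Of the 10 widest ACBI peaks, from 4816 to 5868 bp, 4 held RUNX1, 2 held BRG1 and 3 held H3K4me3. Other pairs in the widest bin of DMSO width, from 1353 to 3543 bp, held them in 38.7%, 20.6% and 37.1% of cases. The DMSO peaks of the 10 measured 220 to 3543 bp, so this bin is not matched to them in width. The second widest was on chromosome 19, where a DMSO peak of 3543 bp (47103714 to 47107256) and an ACBI peak of 5761 bp (47103676 to 47109436) held all 3. Its DMSO peak contained 1304 bp of RUNX1 peak, 290 bp of BRG1 peak and 2082 bp of H3K4me3 peak, and 2180 of the 2218 added bp lay on the upper side. The H3K4me3 length in the ACBI peak was also 2082 bp, so the added flank held no H3K4me3.

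The third widest, on chromosome 1, went from 3099 bp (45097014 to 45100112) to 5407 bp and held RUNX1 and H3K4me3. The fourth, on chromosome 4, went from 3486 bp (81058633 to 81062118) to 5271 bp. It held RUNX1 (649 bp) and BRG1 (517 bp) and lay 43.0 kb from H3K4me3, a co-occupied site away from promoter marking. On chromosome 14, a DMSO peak of 2915 bp (50064482 to 50067396) lay wholly within H3K4me3, and the ACBI peak of 4966 bp held 3442 bp of it. The other 5 of the 10 widest started in DMSO at 61526239 on chromosome 20, 154542236 on chromosome 4, 42251787 on chromosome 22, 80509752 on chromosome 17 and 97846982 on chromosome 9, and held no peak of the 3 lists.

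All 3 lists met in 26 widened pairs (1.62%, 1.06 to 2.36), against 3.62% of the other pairs at the same DMSO widths. The DMSO peaks of these 26 had a median of 1138 bp and their ACBI peaks a median of 2246 bp, with a median ratio of 1.65 and a maximum of 3.12. After the site on chromosome 19, the widest in ACBI was on chromosome 10, from 2851 bp (92979833 to 92982683) to 4363 bp, with H3K4me3 over 2436 bp of the DMSO and 2857 bp of the ACBI peak. The next were on chromosome 3 (196466218 to 196468803, from 2586 to 3940 bp), chromosome 22 (24235802 to 24237763, from 1962 to 3405 bp) and chromosome 11 (65769287 to 65771080, from 1794 to 3212 bp). At the site on chromosome 11 the DMSO peak lay wholly within H3K4me3, which filled 1794 bp of the DMSO and 2736 bp of the ACBI peak. At the site on chromosome 3 the ACBI peak held less H3K4me3 than the DMSO peak, 1967 against 2232 bp, because it had also lost bases on the upper side.

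RUNX1 and BRG1 met away from H3K4me3 in 8 widened pairs (0.498%, 0.215 to 0.979), against 0.990% of the other pairs at the same DMSO widths. These 8 were described after their values were seen. Their DMSO peaks measured 425 to 3486 bp and their ACBI peaks 1125 to 5271 bp, with ratios from 1.51 to 2.65. The widest was the site on chromosome 4 above, and the second was on chromosome 15 (57016611 to 57018128, from 1518 to 3470 bp), 6.28 kb from H3K4me3. On chromosome 13 a RUNX1 peak filled the whole DMSO peak of 786 bp (95159401 to 95160186), and the ACBI peak of 1873 bp held 974 bp of it. On chromosome 6 a DMSO peak of 807 bp (128292424 to 128293230) held 222 bp of RUNX1 peak and its ACBI partner of 1593 bp held 836 bp, so there the added flank ran over the RUNX1 peak. Among widened pairs, 27 more held RUNX1 without BRG1 away from H3K4me3, with a median ratio of 1.72, and 3 held BRG1 alone there. These are 1.68% and 0.187% of the widened pairs, against 3.59% and 0.445% of the other pairs at the same DMSO widths.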

How the data were processed

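The authors deposited each peak list as chromosome, start, end and peak name. The lists of 5 samples were used, with 1 library per group. Their values are positions in hg19, per the submitters' processing notes, which name MACS2 and SEACR. Both H3K27ac lists hold broad peaks of cutruntools at q below 0.01 and the RUNX1 list holds MACS2 peaks, per the file headers. The lists hold no score or count, so depth is unknown. The width of a called peak depends on depth and background, and no interval here covers that. No source used here gives the aligner, the other thresholds, the use of controls or any pooling.

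Overlaps of at least 1 bp were computed with pandas 2.3.3 and numpy 2.4.6 under Python 3.11.15, exact intervals with scipy 1.17.1, and figures with matplotlib 3.10.9. Counts of overlaps for 5 pairs of lists were checked against bedtools 2.31.1, with 0 peaks differing. Other pairs were weighted to the widened pairs' distribution over 10 bins of DMSO width, within 158 to 3543 bp. The weighting was tested on simulated content. Named sites are the 10 with the largest width ratio, added length and ACBI width, the 5 widest with all 3 lists, and the 3 pairs on each side of the thresholds. The pairs, lists and rules were chosen with earlier results of these data known. Gene lists fixed for sites near T-lineage, NOTCH1 pathway, T-cell receptor and surface, SWI/SNF and other lineage genes were not used, since the gene table given is for GRCh38.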

Additional observations from a re-analysis of the deposited data

How the results depend on the processing

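No paired analysis was possible because each group had 1 library with a peak list. A width ratio of 2 left 950 widened pairs, and an ACBI width of 2000 bp or more left 411. With that width the differences from other pairs at the same DMSO widths were -9.68 points (RUNX1), -5.79 (BRG1) and -8.76 (H3K4me3). With H3K27ac peaks of each list merged where less than 1000 bp apart they were -9.79, -4.56 and -10.7 points. Against pairs whose widths differed by less than 1.5 times they were -8.82, -4.39 and -11.7 points. With at least 50% of the narrower peak covered, H3K4me3 gave -8.50 points. Against pairs wider in DMSO by the same rule, for DMSO peaks of 1000 bp or wider, RUNX1 gave -4.29 points and H3K4me3 turned to 2.20 points; this setting uses 352 widened pairs, and the cause was not tested. Weighted to the ACBI width, which was added after seeing the data, they were -38.9, -21.4 and -36.4 points. The other 31 values (20 or 50 width bins, midpoints, the union of both peaks, autosomes and X, no chromosome 20 and others) did not leave the reported value's interval, or 1.5 times a reported count. The 50 bins, the wider range of other pairs and the omission of chromosome 20 were also added after seeing the data. Depth is unknown, so a difference in depth between the 2 H3K27ac libraries cannot be told apart from the treatment.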
